A study of Mus musculus with 4 samples.

Results

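The Ly6 surface antigens described here were 4 genes, Ly6a, Ly6c1, Ly6c2 and Ly6e, taken by symbol from the 17561 genes measured in single CD8+ T cells of mouse BM, and all 4 were found. The cells came from female mice of 8 to 12 weeks on a C57BL/6 background, WT or CRBN transgenic, that received Vk12653 myeloma 2 weeks before SCT and were studied 4 weeks after it, with grafts from genetically matched donors. CRBN is the protein that lenalidomide binds, the transgene lets the drug act in mice, and the labels did not say which group held which genotype. Each library pooled CD8+ T cells of 5 mice of 1 treatment, so each group was 1 sample: control antibody (cIg) with vehicle, αTIGIT with vehicle, cIg with lenalidomide, or αTIGIT with lenalidomide. Antibody was given from the day of transplantation (100 μg per dose, 2 doses a week), and lenalidomide or vehicle daily from day 14 (50 mg/kg), and cells were taken on day 28. The deposited tables number the libraries 1 to 4 without a treatment. Values are therefore given for each numbered library, no library was assigned to a treatment, and treatments were not compared.

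The genes of the Ly6 family encode small cysteine-rich proteins that are tied to the outer membrane by a GPI anchor, and many of them lie side by side on 1 mouse chromosome. Ly6a encodes Sca-1, known as a marker of hematopoietic stem cells, which is also found on activated T cells and is induced by interferons. Ly6c1 and Ly6c2 encode the near-identical proteins read together as Ly6C, a marker of inflammatory monocytes and of memory and effector CD8+ T cells, and Ly6e encodes an interferon-induced antigen known from immature thymocytes and from restriction of virus entry.

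All 4 genes lay on chromosome 15 of the GRCm38 build, each protein coding, within the GENCODE M21 annotation. Ly6e (ENSMUSG00000022587, chr15:74955051-74959905) was on the plus strand. Ly6a (ENSMUSG00000075602, chr15:74994877-74998031), Ly6c1 (ENSMUSG00000079018, chr15:75044018-75048830) and Ly6c2 (ENSMUSG00000022584, chr15:75108158-75111970) were on the minus strand. The coding sequences of Ly6c1 and Ly6c2 were both 393 bases long and matched at 384 positions (97.7%). Ly6a matched them at 81.8% and 81.6% of aligned positions, and Ly6e matched the other members at 50.7% to 54.1%. Of the windows of 90 bases along the Ly6c2-201 transcript, 18.3% also occurred in a Ly6c1 transcript, and of the windows of 50 bases 32.6% did. Reads from such windows cannot be given to 1 of these genes, and the read length was not given in the sources used here. The levels of Ly6c1 and Ly6c2 are therefore uncertain by the share of reads that fell there.

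The promoters of this pair differed more than their coding sequences did. They are shown beside the levels of this pair, which were far apart (the values follow). Whether the promoters have a part in these levels was not tested. The windows run from 250 bases before to 50 bases after the start site, from RefSeq on GRCm38.p6, both on the minus strand at chr15:75048788-75049087 and chr15:75111922-75112221. Capitals mark bases that differed or had no partner in the other promoter within the 282 aligned columns, of which 208 (73.8%) were identical.
Ly6c1: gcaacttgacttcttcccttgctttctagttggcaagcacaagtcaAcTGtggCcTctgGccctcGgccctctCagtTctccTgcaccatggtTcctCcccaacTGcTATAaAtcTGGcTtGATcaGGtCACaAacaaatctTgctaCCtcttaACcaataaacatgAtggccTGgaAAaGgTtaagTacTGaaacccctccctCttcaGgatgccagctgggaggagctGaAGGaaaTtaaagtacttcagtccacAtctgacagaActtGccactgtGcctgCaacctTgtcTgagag
Ly6c2: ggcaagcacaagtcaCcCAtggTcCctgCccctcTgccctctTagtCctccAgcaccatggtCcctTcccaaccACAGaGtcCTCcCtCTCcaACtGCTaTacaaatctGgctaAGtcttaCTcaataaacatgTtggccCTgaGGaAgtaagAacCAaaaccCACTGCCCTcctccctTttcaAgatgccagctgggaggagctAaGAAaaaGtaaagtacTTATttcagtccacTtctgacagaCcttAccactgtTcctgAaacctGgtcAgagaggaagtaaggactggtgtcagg
Neither window held the interferon-type letters TTCNNNGAA or a pair of GAAA set 2 bases apart, searched on both strands, which occurred in 8.30% and 3.44% of the 32851 promoters of the same length. The letters TATAAA occurred 1 time in the Ly6c1 window and 0 times in the Ly6c2 window, beside 13.6% of all promoters.

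The 4 libraries held between 1725 and 4237 cells, 11754 in all, with 15556967 to 38440687 UMIs (unique molecular identifiers, each standing for 1 captured RNA molecule). Median depth was 7115 to 7669 UMIs per cell, and a TCR was called in 59.1% to 76.2% of cells. Levels are given in CPM, a gene's UMIs in a cluster scaled to 1000000 UMIs of the same cells, with an exact Poisson 95% interval, and log2 ratios of CPM carry conditional binomial 95% intervals. These intervals cover counting error only, not mice, and no test was made, since clusters were built on the same expression values and each group was 1 library. The clusters were those named by the authors: Tn (naive), Tcm (central memory), transitory Teff, GzmB+ Teff, TIGIT+ Teff (effector), GzmA+ Tex, TIM-3+ Tex (exhausted) and cycling cells. The 6 T cell markers Cd3e, Cd3g, Cd3d, Cd8a, Cd8b1 and Trac summed to 3883 to 8146 CPM in a cluster, and Cd4 did not exceed 1.53 CPM. In GzmA+ Tex the 15 macrophage markers summed to 2446 CPM, against 105 to 453 CPM in the other clusters. Over all libraries, 56 barcode sequences occurred in more than 1 library, in 112 cells.

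Ly6c2 and Ly6e were abundant in CD8+ T cells, Ly6a was intermediate and Ly6c1 was close to absent. Per kb of the 201 transcript, the level over all cells was 1308 CPM for Ly6c2, 549 CPM for Ly6e, 377 CPM for Ly6a and 1.07 CPM for Ly6c1. The kit reads the 5′ end of a transcript, so the UMIs of a molecule do not grow with its length, and the order of Ly6c2 and Ly6e depends on this scale. Without division by length, Ly6e had 1252 CPM (1245 to 1259) and Ly6c2 1075 CPM (1069 to 1081), followed by Ly6a with 309 CPM (306 to 312).

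Ly6a was highest in GzmB+ Teff and lowest in Tcm. In GzmB+ Teff its level was 1007, 952, 1188 and 727 CPM in libraries 1 to 4, and 916 CPM over all (893 to 939). In Tcm the same libraries had 65.4, 82.3, 148 and 54.3 CPM, and 72.8 CPM over all (69.5 to 76.2). These ranges were far apart, and every library had Ly6a higher in GzmB+ Teff than in any other cluster.

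Naive cells stood between these extremes. Tn had 219, 214, 251 and 142 CPM of Ly6a in libraries 1 to 4. Transitory Teff had 514, 434, 834 and 261 CPM, TIGIT+ Teff had 306, 326, 672 and 247 CPM, and GzmA+ Tex had 402, 250.0, 593 and 209 CPM. TIM-3+ Tex had 238, 266, 731 and 146 CPM, where library 3 rested on 31 cells, and cycling cells had 336, 346, 751 and 206 CPM. From transitory Teff (433 CPM over all) through TIGIT+ Teff (411 CPM), cycling cells (369 CPM) and GzmA+ Tex (340 CPM), neighbours in the order differed by 0.08 to 0.16 on the log2 scale. TIGIT+ Teff was above cycling cells in 1 of 4 libraries and cycling cells above GzmA+ Tex in 2 of 4, so the order of these clusters did not hold across libraries.

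Over all cells the level of Ly6a differed more between libraries (2.91 from the lowest to the highest) than that of Ly6c2 (1.63) or Ly6e (1.15), while in transitory Teff and TIGIT+ Teff the ratio was larger for Ly6c2. Library 3 was the highest and library 4 the lowest in each of the 8 clusters. The ratio of the highest to the lowest library was 1.63 in GzmB+ Teff and 1.76 in Tn, and between 2.72 and 5.01 in the remaining clusters. As a background, 2 of 4077 genes with at least 50 CPM in a cluster had this order in all clusters, or 0.0491%, namely Ly6a and Tgtp2, an interferon-induced GTPase. The order was noticed in these values before the other genes were counted. The median log2 ratio of library 3 to library 4 over clusters was 1.43 for Ly6a and 0.60 for Tgtp2, with 10 CPM added to both sides. Among 47 genes of an interferon-induced list at this level, 0 had the order, and their median log2 ratio was 0.23, against 0.03 over all genes.

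The order held without the 2 largest clones of library 3 in 8 of 8 clusters. It also held in cells without a TCR call, in 7 of the 7 clusters with at least 20 such cells in each library. In cells whose clonotype occurred 1 time in its library, library 4 was the lowest in 5 of 5 clusters and library 3 the highest in 3 of 5. In GzmB+ Teff these single cells had 1101, 1019, 959 and 854 CPM of Ly6a in libraries 1 to 4, and in cycling cells 274, 316, 288 and 192 CPM. The library 3 level was thus not set apart in these cells of single clones in 2 clusters. Treatment, mice and library cannot be told apart here.

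**Figure D1:**
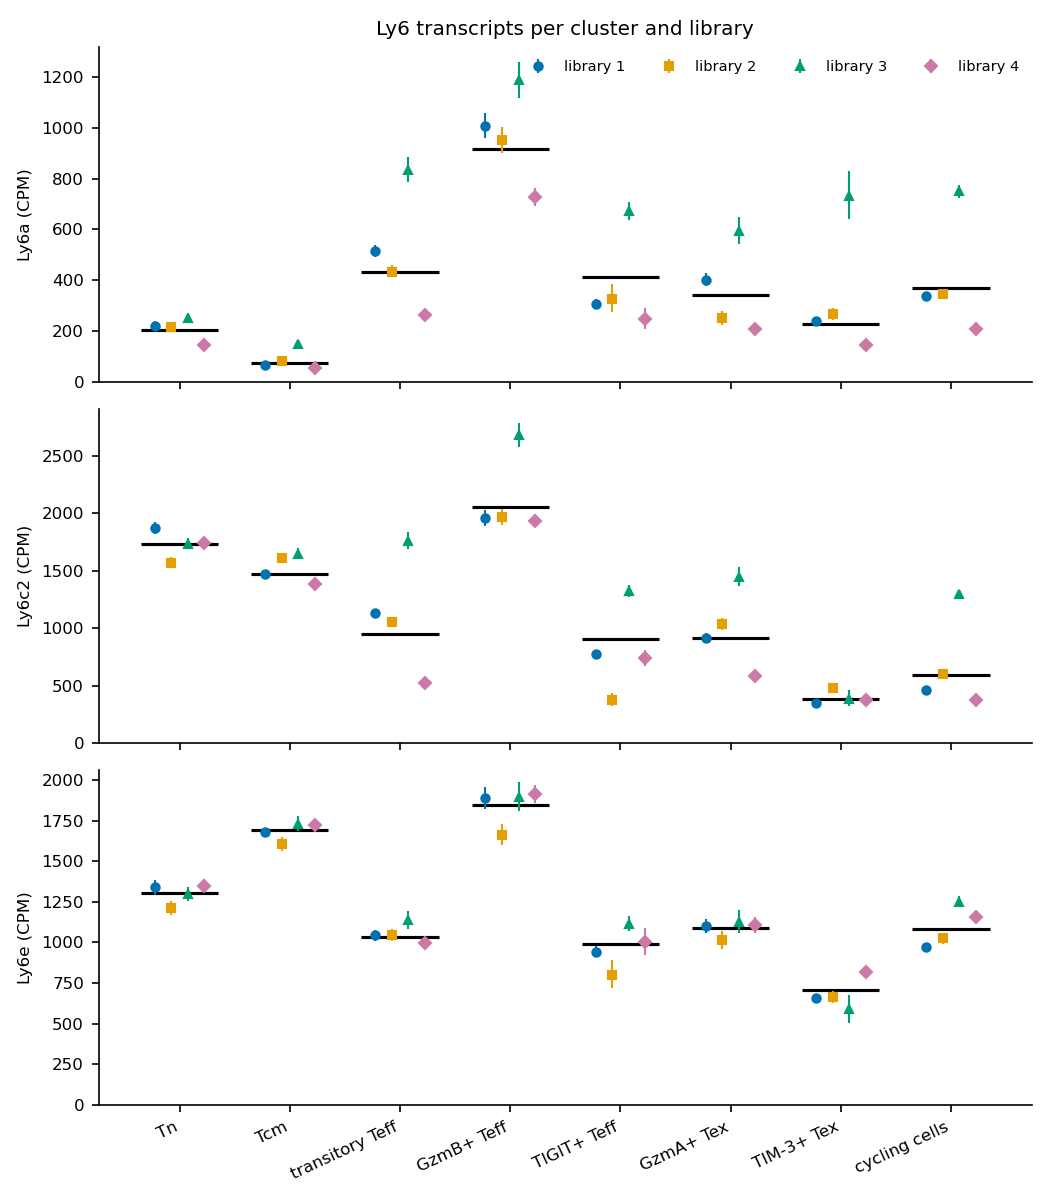
Levels of Ly6a, Ly6c2 and Ly6e (rows; CPM, linear axes from 0) in the 8 clusters (columns) for libraries 1 to 4 (points, with exact Poisson 95% intervals) and over all libraries (black lines). Ly6a peaks in GzmB+ Teff with library 3 highest and library 4 lowest throughout, Ly6c2 spreads most in the transitory Teff, TIGIT+ Teff, GzmA+ Tex and cycling clusters, and Ly6e differs little between libraries.

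Ly6c2 was highest in GzmB+ Teff and in the naive and memory clusters, and over all libraries lowest in TIM-3+ Tex. In GzmB+ Teff it had 1957, 1966, 2679.8 and 1934 CPM in libraries 1 to 4, in Tn 1868, 1570.3, 1735 and 1744 CPM, and in Tcm 1472, 1609, 1647 and 1384 CPM. In TIM-3+ Tex it had 347, 480, 384 and 374 CPM. The libraries were close to each other in these 4 clusters, where the highest exceeded the lowest by a factor of 1.19 to 1.39.

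In the other effector, exhausted and cycling cells the libraries were far apart. Transitory Teff had 1135, 1056, 1759.7 and 524 CPM of Ly6c2 in libraries 1 to 4, and cycling cells had 464, 603, 1294 and 371 CPM. TIGIT+ Teff had 774, 376, 1321 and 739 CPM, where libraries 2 and 4 rested on 50 and 59 cells. GzmA+ Tex had 916, 1036, 1446 and 586 CPM. Library 3 was the highest in all of these, and the ratio of the highest to the lowest library was 2.47 to 3.51. Over all libraries, transitory Teff (949 CPM), GzmA+ Tex (917 CPM) and TIGIT+ Teff (906 CPM) differed by 0.02 to 0.05 on the log2 scale, and their order changed between libraries.

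Ly6e was present in nearly every cell and over all cells differed least between libraries among the 3 abundant members, while in TIM-3+ Tex its ratio of the highest to the lowest library (1.40) was close to that of Ly6c2 (1.38). In GzmB+ Teff it had 1890.0, 1663, 1898 and 1915 CPM in libraries 1 to 4, and in Tcm 1679, 1607, 1732 and 1721 CPM. TIM-3+ Tex had 656, 661, 587 and 820 CPM and was the lowest cluster in each library. In the other clusters the 4 libraries lay between 803 and 1350 CPM, and the ratio of the highest to the lowest library was 1.08 to 1.40 over all clusters. GzmA+ Tex (1088 CPM over all), cycling cells (1080 CPM), transitory Teff (1035 CPM) and TIGIT+ Teff (990.0 CPM) were neighbours that differed by 0.01 to 0.06 on the log2 scale, and their order changed between libraries.

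Ly6c1 gave 96 UMIs in all cells, 38, 9, 23 and 26 of them in libraries 1 to 4, or 0.905 CPM (0.733 to 1.11). It ranged from 0.261 CPM in cycling cells to 1.93 CPM in Tn over all libraries, and it had 0 UMIs in 2 libraries of TIGIT+ Teff, 3 of GzmA+ Tex and 1 of TIM-3+ Tex. Neighbouring clusters in the order could not be told apart at this depth, since the interval of each such log2 ratio included 0. The ends of the order were picked from these same values. Their log2 ratio, cycling cells to Tn, was -2.88 (-4.36 to -1.59), below 0 in each library. The interval excluded 0 in 3 libraries, and library 2 had -0.39. Reads of Ly6c2 given to Ly6c1 were not separated from this. The 5 effector and exhausted clusters together had -1.32 against Tn (-2.15 to -0.45), with library 2 on the other side, and cycling cells -1.57 against these clusters (-2.99 to -0.36). These ratios rest on 7 UMIs in cycling cells, 33 in the effector and exhausted clusters and 21 in Tn. With 1 cell per clone the ratio of the effector and exhausted clusters to Tn was -0.46, and in cells with 1 TRB chain that of cycling cells to these clusters was -3.22.

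In GzmA+ Tex the levels of the members stood beside transcripts of other cell types. Lyz2, a lysozyme of myeloid cells, had 291 CPM there and at most 6.98 CPM in another cluster, C1qb, a complement subunit of macrophages, had 182 CPM against at most 13.6 CPM, and Jchain, of plasma cells, had 58.4 CPM against at most 4.21 CPM. The 13 plasma cell genes in the table summed to 153 to 1209 CPM over the libraries of GzmA+ Tex. Without every cell that held a UMI of 9 macrophage and plasma cell genes, 53 of the 571 cells of GzmA+ Tex were left, and their levels were 381 CPM of Ly6a, 1029.7 CPM of Ly6c2, 1283 CPM of Ly6e and 0 UMIs of Ly6c1.

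The members moved in different directions between naive cells and the 5 effector and exhausted clusters as a whole. Ly6a was higher in these clusters (440 CPM, against 203 CPM in Tn), by 1.11 on the log2 scale (1.05 to 1.18), with 0.94, 1.09, 1.67 and 1.12 in libraries 1 to 4. Ly6c2 was lower, by a log2 ratio of -0.84 (-0.86 to -0.81), with -1.10, -0.57, -0.08 and -1.19. Ly6e was lower by a small amount, with a log2 ratio of -0.27 (-0.29 to -0.24) and -0.42, -0.20, -0.08 and -0.25 in the libraries. Each of these kept 1 direction in all 4 libraries, as did 60.1% of the 2936 genes tested in the higher and 15.1% in the lower direction, and the median log2 ratio of all genes was 0.24. None of the members passed 2-fold in all 4 libraries, beside 3.92% of genes that were higher and 0.579% that were lower by this rule. With 1 cell per clone the log2 ratio of Ly6e was 0.10 and that of Ly6c2 -0.22. Without cells holding a UMI of the macrophage or plasma cell lists they were -0.0344 and -0.18. This filter left 488 cells of these clusters and 251 of 1342 Tn. With median-of-ratios size factors Ly6e had -0.54.

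The single clusters differed in how far they were from Tn. Ly6a was higher than in Tn by 2.17 on the log2 scale in GzmB+ Teff (2.15 to 2.35 in the libraries) and by 0.16 in TIM-3+ Tex (0.03 to 1.55). Over all libraries Ly6c2 was above its level in Tn only in GzmB+ Teff among these clusters, by 0.25 (0.07 to 0.63), and its log2 ratio was -2.19 in TIM-3+ Tex (-2.43 to -1.71). Ly6e followed Ly6c2 in sign, with 0.51 in GzmB+ Teff (0.46 to 0.55) and -0.88 in TIM-3+ Tex (-1.14 to -0.72).

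Between central memory and naive cells Ly6a showed the largest ratio. Its level in Tcm was below that in Tn by a log2 ratio of -1.48 (-1.57 to -1.39), with -1.75, -1.38, -0.76 and -1.39 in libraries 1 to 4. Ly6e was higher in Tcm, by 0.38 (0.35 to 0.41), with 0.33, 0.41, 0.42 and 0.35. Ly6c2 had a log2 ratio of -0.23 (-0.26 to -0.21), and library 2 went the other way (-0.34, 0.03, -0.08 and -0.33). As a mean of single-cell CPM it was -0.15. Without cells holding a UMI of the macrophage or plasma cell lists it was -0.10, with 419 of 3418 Tcm and 251 of 1342 Tn left. Of 2611 genes, 47.2% were higher and 17.8% lower in all 4 libraries, and 1.8% were higher and 0.574% lower by at least 2-fold in all 4, where no member was.

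Cycling cells had less Ly6c2 than the effector and exhausted clusters together and the same amount of Ly6e within the counting error. The log2 ratio of Ly6c2 was -0.71 (-0.74 to -0.69), with -0.91, -0.81, -0.34 and -1.04 in libraries 1 to 4, and that of Ly6a was -0.25 (-0.29 to -0.22), with -0.32, -0.40, -0.08 and -0.59. For Ly6e it was -0.00 (-0.02 to 0.02), with 2 libraries on each side of 0. The ratio of Ly6a was -0.95 with 1 cell per clone, -0.42 in thinned cells, -0.47 in cells with 1 TRB chain and -0.41 without library 3. It was -1.09 without cells holding a UMI of the macrophage or plasma cell lists, which left 55 of 1928 cycling cells. With this filter Ly6e had -0.20, and with 1 cell per clone -0.0932. Both Ly6a and Ly6c2 were lower in all 4 libraries, like 29.4% of the 3281 genes tested. No member passed 2-fold in all 4 libraries, which 5.49% of genes did in the higher and 0.152% in the lower direction.

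GzmB+ Teff had more of all 3 abundant members than transitory Teff. The log2 ratios were 1.08 for Ly6a (1.03 to 1.13), 1.11 for Ly6c2 (1.08 to 1.15) and 0.84 for Ly6e (0.80 to 0.87). In libraries 1 to 4 Ly6a had 0.97, 1.13, 0.51 and 1.48, Ly6c2 0.79, 0.90, 0.61 and 1.88, and Ly6e 0.86, 0.67, 0.74 and 0.95. All 3 were higher in each library, beside 17.5% of 2839 genes, and 0 passed 2-fold in all 4 libraries, beside 2.54% of genes that were higher and 0.141% that were lower. With clusters taken by their Leiden number in place of the names, the log2 ratios were 0.31, 0.33 and 0.50 for Ly6a, Ly6c2 and Ly6e.

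TIM-3+ Tex had less of all 3 than transitory Teff. Over all libraries Ly6c2 was farthest apart, while in library 4 it was Ly6a. Library 3 held 31 TIM-3+ Tex. The log2 ratio of Ly6c2 was -1.32 (-1.37 to -1.27), with -1.71, -1.14, -2.19 and -0.49 in libraries 1 to 4. For Ly6a it was -0.93 (-0.999 to -0.86), with -1.11, -0.70, -0.19 and -0.84, and for Ly6e -0.54 (-0.59 to -0.50), with -0.67, -0.66, -0.95 and -0.28. Of 2891 genes, 16.7% were lower in all 4 libraries, as these members were, while 0.242% were lower and 0.38% higher by at least 2-fold in all 4, with no member among them. With 1 cell per clone the log2 ratios were -2.04 for Ly6c2 and -0.45 for Ly6a, and in cells with 1 TRB chain -2.74 for Ly6c2 and -1.07 for Ly6e. Without cells holding a UMI of the macrophage or plasma cell lists, 39 TIM-3+ Tex were left, and Ly6c2 had -4.35, Ly6a -2.12 and Ly6e -0.89.

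Cells of 1 clone can lie in several clusters, which allows a comparison between cells of the same clones. UMIs were summed over the clones on each side, not paired by clone. Clones with unlike numbers of cells in the clusters therefore weigh differently on each side, and this was not separated from differences within clones. Among 74 clones with cells in both clusters, 506 cells of TIM-3+ Tex and 687 of transitory Teff, Ly6c2 had 128 CPM in the exhausted and 335 CPM in the transitory cells. This was a log2 ratio of -1.39 (-1.55 to -1.23), with -1.91, -1.99, -1.33 and -0.56 in libraries 1 to 4. Ly6e had -0.75 (-0.84 to -0.66) and was lower in each library. Ly6a had -0.29 (-0.42 to -0.17), with a library 3 value of 1.22 against -0.85, -0.29 and -0.23 in libraries 1, 2 and 4, so its direction was not shared. Library 3 held only 31 TIM-3+ Tex in all, within or outside these clones.

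Ly6c2 was distributed unevenly among the cells of a cluster. Each cell was thinned to 2500 UMIs so that shares could be compared, and the share of cells with 0 UMIs was set beside the share that a Poisson distribution of the same mean gives. In transitory Teff 50.3% of cells had 0 UMIs of Ly6c2, where the Poisson share was 8.45%, and 26.0% had 4 or more. In GzmB+ Teff the shares were 24.7% and 0.518%, in Tn 19.5% and 1.63%, and in Tcm 28.6% and 2.47%. No cluster of CD8+ T cells is known to lack these genes, so no background share could be taken from another cell type.

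Over the clusters the variance of Ly6c2 was 3.20 to 6.11 times its mean, that of Ly6a 1.60 to 4.26 times and that of Ly6e 1.34 to 1.97 times. Ly6a was closer to the Poisson share in Tn (67.7% of cells with 0 UMIs, against 61.1%) than in GzmB+ Teff (35.5%, against 6.60%). Ly6e had 2.46% to 30.9% of cells with 0 UMIs, against 0.725% to 20.5%. Before thinning, 39.9% to 87.9% of the cells of a cluster held a UMI of Ly6c2, 22.3% to 79.0% one of Ly6a and 90.2% to 99.97% one of Ly6e, at median depths of 5545 to 13960 UMIs per cell.

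The libraries differed in this share as in the level. In transitory Teff 44.4%, 44.0%, 25.3% and 67.8% of the thinned cells of libraries 1 to 4 had 0 UMIs of Ly6c2, and in cycling cells 61.7%, 55.02%, 29.7% and 72.03%. Library 3 had the fewest and library 4 the most such cells in both. In Tn the shares were 16.4%, 21.7%, 18.4% and 21.4%, which is a narrower range.

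**Figure D2:**
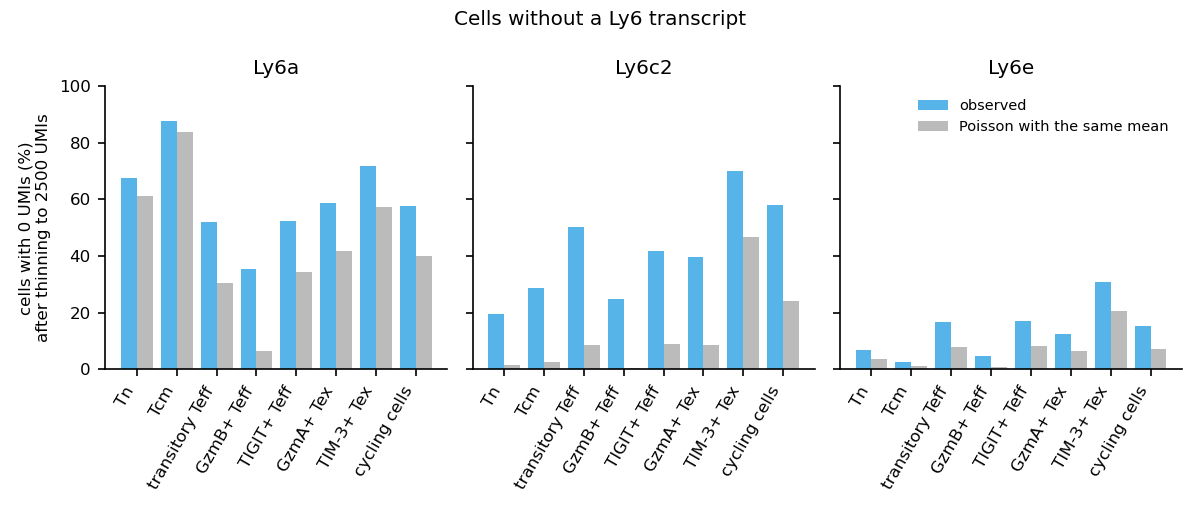
Share of cells with 0 UMIs of Ly6a, Ly6c2 and Ly6e in the 8 clusters after each cell was thinned to 2500 UMIs (percent), as observed (blue bars) and as a Poisson distribution of the same mean gives (grey bars). Ly6c2 lies far above its Poisson share in every cluster, for example 50.3% against 8.45% in transitory Teff, and Ly6e lies closest to it.

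Ly6c2 was detected more often in cells that also held Ly6a. In transitory Teff, Ly6c2 was detected in 66.3% of the 906 thinned cells with a UMI of Ly6a and in 34.3% of the 985 cells without. The direction was the same in the other 7 clusters, for example 86.9% against 77.4% in Tn and 63.6% against 57.9% in GzmA+ Tex. These shares pool cells of all libraries and clones, which differed in both genes, and this was not separated. In transitory Teff Pearson's r between Ly6a and Ly6c2 over cells was 0.42, 0.47, 0.37 and 0.30 in libraries 1 to 4. This r was taken within each library on the log2 CPM of unthinned cells, whose depth differed. Ly6e was also detected more often in cells with Ly6c2 in all 8 clusters. With Ly6a this held in 7, and in GzmA+ Tex Ly6e was found in 86.4% of cells with and 88.1% of cells without Ly6a. Over cells, r between Ly6a and Ly6e was below 0 in library 3 of GzmB+ Teff (-0.06) and of GzmA+ Tex (-0.08).

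The transitory Teff were divided by their thinned Ly6c2 UMIs, a division made after the values were seen, into 491 cells with at least 4 and 952 cells with 0. The CPM of this division were taken from the thinned counts, unlike the levels given above. Clones and clone sizes differed in Ly6c2 within this cluster (values follow), and the division was not separated from them. Ly6a had 794 CPM in the first and 284 CPM in the second (log2 ratio 1.45 with 10 CPM added), higher in each library by 0.80 to 1.48, and Ly6e had 1313 and 830 CPM. Of 2928 genes, 4 (0.137%) were higher by at least 2-fold in all 4 libraries in the cells with Ly6c2 and 2 (0.0683%) were lower. The higher ones were Ccr2, a chemokine receptor (207 against 33.6 CPM), Jaml, an adhesion molecule (83.9 against 23.1 CPM), Klrg1, an inhibitory receptor of effector cells (72.5 against 23.1 CPM), and Il18rap, a subunit of the IL-18 receptor (82.3 against 35.7 CPM). The lower ones were Ikzf2, which encodes the transcription factor Helios (26.1 against 115 CPM), and Ephx1, an epoxide hydrolase (13.8 against 77.3 CPM). In Tcm, 1486 cells with at least 4 and 976 with 0 UMIs of Ly6c2 differed in this way by 0 of 2699 genes in either direction (0%), while Ly6a had 90.4 and 40.6 CPM.

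Ly6c2 was lower in expanded clones, those with at least 2 cells of 1 TCR clonotype in a library, than in cells whose clonotype occurred 1 time. Transitory Teff, GzmB+ Teff and cycling cells had at least 20 cells of each kind in each library. In transitory Teff the single cells had 1772, 1587, 1843 and 811 CPM of Ly6c2 in libraries 1 to 4, and the expanded cells 791, 749, 1667 and 303 CPM. The log2 ratio was -1.07 (-1.13 to -1.0001), and it was smallest in size in library 3 (-0.14). In GzmB+ Teff single cells had 2616, 2465, 3149 and 2644 CPM and expanded cells 1018, 2229, 2324 and 920 CPM, a log2 ratio of -0.89 (-0.98 to -0.80), and without library 4 it was -0.56.

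In cycling cells library 3 went against the others. Single cells had 855, 1104, 807 and 863 CPM of Ly6c2 in libraries 1 to 4, and expanded cells 213, 339, 1350 and 119 CPM. The log2 ratio was -1.12 over all (-1.19 to -1.05), with -2.01, -1.70, 0.74 and -2.85 in the libraries. The single cells of the 4 libraries lay close together and the expanded cells did not. Without library 3 the log2 ratio was -2.24, without library 4 -0.73 and with 1 cell per clone -0.67. In library 3, leaving out its 2 largest clones left 97 expanded cycling cells with 1143 CPM, a log2 ratio of 0.50 (0.33 to 0.67) against the single cells.

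Ly6e was lower in expanded cells in each of these clusters and libraries. In transitory Teff single cells had 1216, 1348, 1346 and 1092 CPM of Ly6e and expanded cells 872, 847, 958 and 880 CPM (log2 ratio -0.49), and in cycling cells the log2 ratio was -0.61. Ly6a was higher in the expanded cells of GzmB+ Teff (log2 ratio 0.37, with 0.11, 0.65, 0.93 and 0.05 in libraries 1 to 4) and of cycling cells (0.59, with 0.28, 0.16, 1.59 and 0.14), and without library 3 these ratios were 0.24 and 0.15. In each of these clusters the counting interval excluded 0 in 2 of 4 libraries. With 1 cell per clone the ratio in cycling cells was 0.39, and without library 4 that in GzmB+ Teff was 0.56. In transitory Teff Ly6a had a log2 ratio of -0.14, with 2 libraries on each side. It was 0.10 without library 4, -0.22 and -0.23 without libraries 1 and 3, and -0.52 with 1 cell per clone.

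The shares of all genes that kept 1 direction in all 4 libraries were of this order. In transitory Teff 13.2% of genes were lower in expanded cells, as Ly6c2 and Ly6e were. In GzmB+ Teff 29% were higher, as Ly6a was, and 12% lower, as Ly6c2 and Ly6e were. In cycling cells 21.8% were higher, as Ly6a was, and 9.97% lower, as Ly6e was. Expanded cells had fewer UMIs than single cells, with a median of 4904.5 against 5908 in transitory Teff, 4766 against 7733 in GzmB+ Teff and 11045 against 12259.5 in cycling cells.

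**Figure D3:**
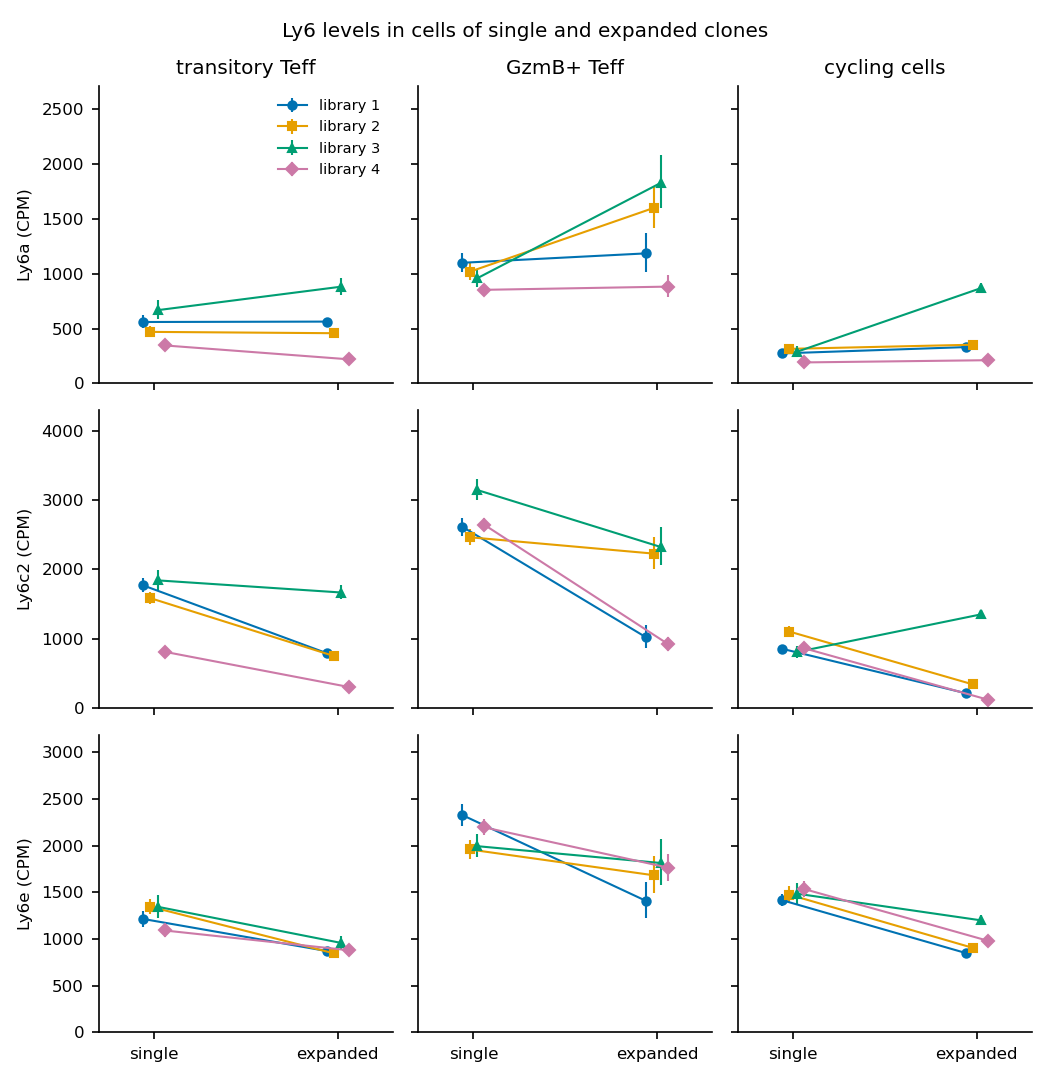
Levels (CPM, linear axes from 0) of Ly6a, Ly6c2 and Ly6e in cells of single and of expanded clones of transitory Teff, GzmB+ Teff and cycling cells, 1 pair of points per library with exact Poisson 95% intervals. Ly6c2 falls from single to expanded cells in every pair except that of library 3 in cycling cells, where it goes from 807 to 1350 CPM.

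Single clones differed from each other more than libraries did. The 33 clones with at least 20 cells held 1790 cells, and their Ly6c2 level ran from 7.94 to 3227 CPM with a median of 166 CPM. Of these clones 25 were below 500 CPM and 5 were at or above 1000 CPM. The 5 were a clone of 31 cells in library 1 (2662 CPM), clones of 32 and 22 cells in library 2 (3227 and 1401 CPM) and clones of 75 and 66 cells in library 3 (1858 and 2087 CPM). These clones also held the highest Ly6a levels of the 33, at 931, 939, 910, 1018 and 1134 CPM. In library 4 the 11 large clones reached at most 664 CPM of Ly6c2 and 496 CPM of Ly6a.

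Ly6e differed least among the large clones, from 307 to 1568 CPM with a median of 736 CPM, and Ly6a ran from 6.54 to 1134 CPM with a median of 304 CPM. The largest clone, of 170 cells in library 1, had 107 CPM of Ly6c2, 288 CPM of Ly6a and 666 CPM of Ly6e. Clones also differed within 1 cluster. In transitory Teff alone the 24 clones with at least 10 cells ran from 36.7 to 3336 CPM of Ly6c2, 16 below 500 CPM and 6 at or above 1000 CPM.

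**Figure D4:**
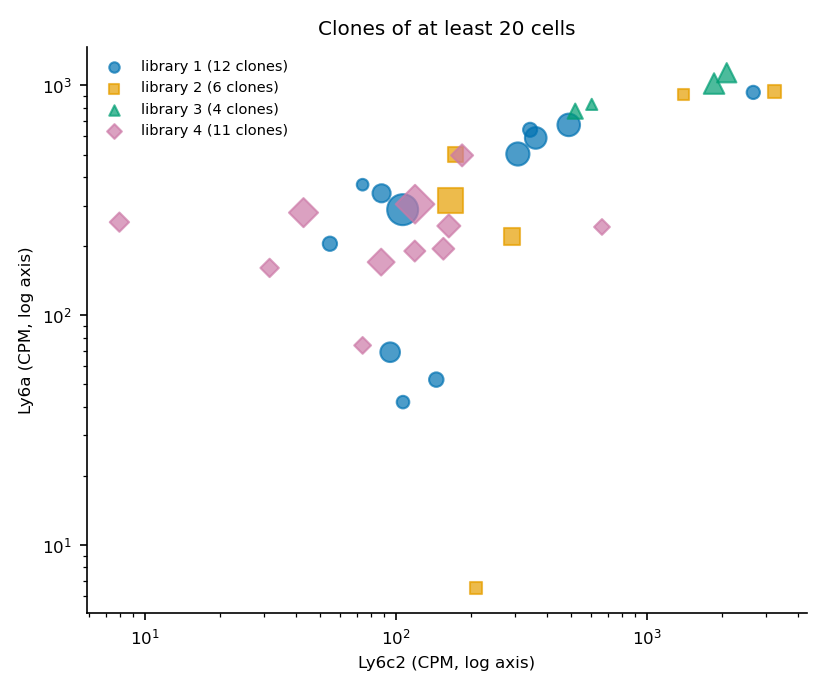
Level of Ly6a (CPM, log axis) against that of Ly6c2 (CPM, log axis) in the 33 clones with at least 20 cells, 1 point per clone, with shapes and colours for the libraries and larger points for more cells. Most clones lie below 500 CPM of Ly6c2, and the 5 clones at or above 1000 CPM, from libraries 1, 2 and 3, are also the highest in Ly6a.

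Genes whose level followed each member most closely were ranked over the 32 combinations of cluster and library, among 4674 genes, by Pearson's r of log2 levels. These points share libraries and clusters, so r is a description. For Ly6a they were Xaf1 (0.80), Irf9 (0.80), 9930111J21Rik2 (0.79), Aida (0.77) and Ifi27l2a (0.77), of which Irf9 is a subunit of the interferon-activated factor ISGF3. For Ly6c2 they were Epsti1 (0.94), Gzmm (0.87), Fam241a (0.86), Arl4c (0.85) and Ssbp2 (0.85), where Gzmm encodes granzyme M. For Ly6e they were Ubald2 (0.93), Map3k8 (0.86), Epsti1 (0.86), Jaml (0.85) and Cpne3 (0.85). For Ly6c1, at its few UMIs, r was at most 0.69.

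Among the members Ly6c2 and Ly6e varied together (r = 0.83), while Ly6a had r = 0.18 with Ly6c2 and -0.02 with Ly6e. The summed level of 50 interferon-induced genes was 13973 CPM in GzmB+ Teff and 2736 to 5185 CPM in the other clusters. Its r was 0.74 with Ly6a, 0.33 with Ly6c2 and 0.37 with Ly6e. Tn and Tcm had a like level of this list, 2736 and 3102 CPM, where Ly6a had 203 and 72.8 CPM.

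**Figure D5:**
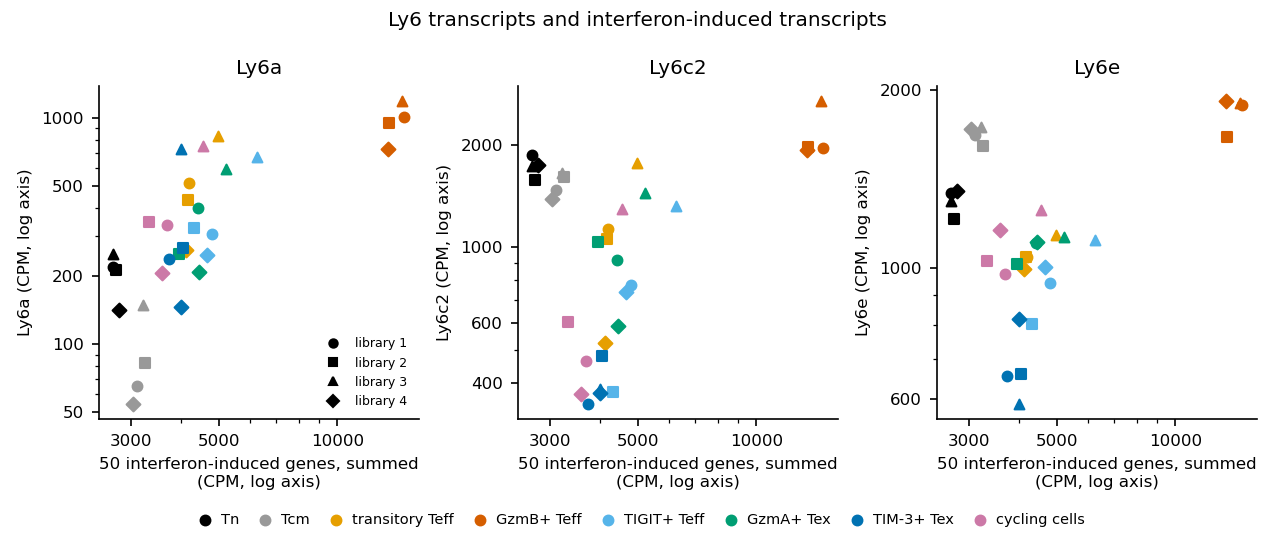
Level of each member against the summed level of 50 interferon-induced genes in the 32 combinations of cluster and library (CPM, log axes), with colours for clusters and shapes for libraries. GzmB+ Teff stands apart at 13469 to 14797 CPM of the list, and over all points Pearson's r is 0.74 for Ly6a, 0.33 for Ly6c2 and 0.37 for Ly6e.

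Other genes of the pathway and family were read from lists, which were chosen with earlier results of these data known. The clusters were built on the same expression values, so the shares beside all genes are descriptions only. Of the interferon-induced genes, 41 of 47 tested were higher by at least 2-fold in all 4 libraries in GzmB+ Teff against transitory Teff, beside 2.54% of all genes, with a median log2 ratio of 1.85 beside -0.10 over all genes. Isg15, a ubiquitin-like modifier, had 1086 against 62.8 CPM. In the effector and exhausted clusters against Tn 8 of 34 were higher, beside 3.92% of all genes (median 0.86, beside 0.24). In cycling cells 2 of 34 were lower, beside 0.152% of all genes (median -0.56, beside 0.08). In Tcm 0 of 20 passed, beside 1.8% of all genes higher and 0.574% lower. In TIM-3+ Tex 0 of 27 passed, beside 0.38% higher and 0.242% lower.

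The GPI anchor is built by a set of enzymes in the endoplasmic reticulum, of which 28 of 29 listed were in the table. Of these, 5 to 7 had enough counts in a comparison and 0 passed 2-fold in all 4 libraries in any of the 5. Among other GPI-anchored antigens only Bst2 (tetherin, an interferon-induced protein that holds viruses to the membrane) passed. This was in GzmB+ Teff against transitory Teff (705 against 164 CPM, log2 ratio 2.04), 1 of 6 tested, beside 2.54% of all genes. Thy1 had 787 against 853 CPM and Cd52 3288 against 3783 CPM there. Of 39 other genes of the Ly6 and uPAR family, 19 were in the table and 2 of these had 0 UMIs. None reached 50 CPM in a cluster, and the highest count was 212 UMIs, of Lypd6b. Ly6d, known from B cells, had 208 UMIs and its highest level, 19.9 CPM, in GzmA+ Tex.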

How the data were processed

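CD8+ T cells were sorted from BM, and 4 libraries of 5 pooled mice each were made with a 10x 5′ kit. Per the submitters' processing notes the authors used Cell Ranger (7.0) and mm10. The deposited table holds raw UMI counts per gene and cell, after the authors had downsampled reads across libraries and kept cells by UMIs, by the deposited mitochondrial fraction and by Cd3e/g and Cd8a. Clusters and clonotypes were the authors' own, and doublets were not removed here.

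Symbols came from GENCODE M21 (17549 of 17561 genes). Counts were summed per cluster and library and divided by all UMIs, with exact 95% intervals, which cover counting error only. Genes entered a comparison with at least 50 CPM on 1 side, and 10 CPM was added for ratios over all genes. Cells were thinned to 2500 UMIs for shares. Libraries carry no treatment in the deposited tables and were not grouped. The genes most like each member were the 5 with the highest r. Members and lists were chosen with earlier results of these data known, and the Ly6c2 division, the library order and the rule of 1 direction were chosen after values were seen. Poisson counts were simulated from the pooled gene means of GzmB+ Teff and transitory Teff (6173 genes, 200 changed). Of the intervals of changed genes, 98.5% held the true ratio. The draws had no spread between cells, clones or libraries, so they check the calculation only and not how the intervals cover these data. Alternatives were other scalings, filters and cell sets. Python 3.11.15, numpy 2.4.6, scipy 1.17.1, pandas 2.3.3, Biopython 1.88 and matplotlib 3.10.9 were used.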

Additional observations from a re-analysis of the deposited data

How the results depend on the processing

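Of 243 log2 ratios of Ly6a, Ly6c2 and Ly6e under the alternatives, 86 stayed within the counting interval, 155 moved beyond it in the same direction or around 0, and 2 took the other sign. These were Ly6e in Teff and Tex against Tn with 1 cell per clone (0.10) and Ly6a in expanded transitory Teff without library 4 (0.10). The intervals are narrow because they hold counting error only, and the cause of each move was not tested. Comparisons are shortened: cycling cells are against Teff and Tex, GzmB+ and TIM-3+ clusters against transitory Teff, and expanded against single clones. With 1 cell per clone, the log2 ratios were Ly6a 1.47, Ly6c2 -0.22 and Ly6e 0.0977 for Teff and Tex against Tn, Ly6a -1.73 for Tcm against Tn, Ly6a -0.95, Ly6c2 -0.94 and Ly6e -0.0932 for cycling cells, Ly6a 1.21 and Ly6e 0.92 for GzmB+ Teff, Ly6a -0.45, Ly6c2 -2.04 and Ly6e -0.76 for TIM-3+ Tex, Ly6a -0.52 and Ly6c2 -0.97 for expanded transitory Teff, Ly6a 0.27, Ly6c2 -0.77 and Ly6e -0.18 for expanded GzmB+ Teff, Ly6a 0.39, Ly6c2 -0.67 and Ly6e -0.48 for expanded cycling cells. With cells thinned to 2500 UMIs, the log2 ratios were Ly6a 1.31 and Ly6c2 -0.72 for Teff and Tex against Tn, Ly6c2 -0.16 for Tcm against Tn, Ly6a -0.42 and Ly6c2 -0.82 for cycling cells, Ly6a 1.19 and Ly6e 0.97 for GzmB+ Teff, Ly6a -1.10, Ly6c2 -1.71 and Ly6e -0.67 for TIM-3+ Tex, Ly6c2 -0.77 for expanded GzmB+ Teff, Ly6c2 -0.96 and Ly6e -0.68 for expanded cycling cells. With clusters by Leiden number, the log2 ratios were Ly6e -0.30 for Teff and Tex against Tn, Ly6a 0.31, Ly6c2 0.33 and Ly6e 0.50 for GzmB+ Teff, Ly6a -1.27, Ly6c2 -1.79 and Ly6e -0.69 for TIM-3+ Tex. With expanded clones of at least 6 cells, the log2 ratios were Ly6c2 -1.21 for expanded transitory Teff, Ly6a 0.49, Ly6c2 -1.18 and Ly6e -0.61 for expanded GzmB+ Teff, Ly6c2 -1.28 for expanded cycling cells. As means of single-cell CPM, the log2 ratios were Ly6a 1.29 and Ly6c2 -0.72 for Teff and Tex against Tn, Ly6c2 -0.15 and Ly6e 0.42 for Tcm against Tn, Ly6a -0.38 and Ly6c2 -0.81 for cycling cells, Ly6a 1.13 and Ly6e 0.95 for GzmB+ Teff, Ly6a -1.09, Ly6c2 -1.70 and Ly6e -0.66 for TIM-3+ Tex. With median-of-ratios size factors, the log2 ratios were Ly6a 0.83, Ly6c2 -1.11 and Ly6e -0.54 for Teff and Tex against Tn, Ly6a -1.59, Ly6c2 -0.34 and Ly6e 0.27 for Tcm against Tn, Ly6e 0.0213 for cycling cells, Ly6a 1.19, Ly6c2 1.22 and Ly6e 0.94 for GzmB+ Teff, Ly6c2 -1.38 and Ly6e -0.60 for TIM-3+ Tex. In cells with 1 TRB chain, the log2 ratios were Ly6a 1.39 and Ly6c2 -0.71 for Teff and Tex against Tn, Ly6a -1.81 for Tcm against Tn, Ly6a -0.47, Ly6c1 -3.22, Ly6c2 -0.89 and Ly6e 0.0214 for cycling cells, Ly6a 1.22, Ly6c2 1.45 and Ly6e 1.07 for GzmB+ Teff, Ly6a -0.86, Ly6c2 -2.74 and Ly6e -1.07 for TIM-3+ Tex. Without cells holding UMIs of 9 macrophage and plasma cell genes, the log2 ratios were Ly6a 1.20 and Ly6c2 -0.79 for Teff and Tex against Tn, Ly6a -0.34 and Ly6c2 -0.76 for cycling cells, Ly6c2 1.16 and Ly6e 0.88 for GzmB+ Teff. Without cells holding UMIs of the whole macrophage or plasma cell lists, the log2 ratios were Ly6a 1.49, Ly6c2 -0.18 and Ly6e -0.0344 for Teff and Tex against Tn, Ly6a -1.99, Ly6c2 -0.10 and Ly6e 0.47 for Tcm against Tn, Ly6a -1.09, Ly6c2 -1.0005 and Ly6e -0.20 for cycling cells, Ly6a 1.01 and Ly6c2 0.80 for GzmB+ Teff, Ly6a -2.12, Ly6c2 -4.35 and Ly6e -0.89 for TIM-3+ Tex.

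Without 1 library at a time, the log2 ratios ranged over Ly6a 0.94 to 1.17, Ly6c1 1.15 to 2.07, Ly6c2 0.82 to 1.25 and Ly6e 0.77 to 0.88 for GzmB+ Teff, Ly6a -1.0028 to -0.87, Ly6c1 -0.34 to 0.49, Ly6c2 -1.66 to -1.10 and Ly6e -0.70 to -0.45 for TIM-3+ Tex, Ly6a -1.58 to -1.38, Ly6c1 -0.73 to -0.0626, Ly6c2 -0.29 to -0.17 and Ly6e 0.36 to 0.40 for Tcm against Tn, Ly6a 1.05 to 1.19, Ly6c1 -1.59 to -0.89, Ly6c2 -0.98 to -0.70 and Ly6e -0.30 to -0.19 for Teff and Tex against Tn, Ly6a -0.41 to -0.20, Ly6c1 -1.72 to -1.43, Ly6c2 -0.95 to -0.58 and Ly6e -0.0203 to 0.0347 for cycling cells, Ly6a 0.24 to 0.56, Ly6c2 -1.17 to -0.56 and Ly6e -0.38 to -0.25 for expanded GzmB+ Teff, Ly6a 0.15 to 0.76, Ly6c1 -1.38 to -1.32, Ly6c2 -2.24 to -0.73 and Ly6e -0.69 to -0.54 for expanded cycling cells, Ly6a -0.23 to 0.0988, Ly6c1 -2.32 to 0.50, Ly6c2 -1.27 to -0.88 and Ly6e -0.57 to -0.42 for expanded transitory Teff. Removing cells with a UMI of the whole marker lists left 39 cells of TIM-3+ Tex, 55 cycling cells, 86 GzmB+ Teff and 293 transitory Teff. It left 419 Tcm, 251 Tn and 488 cells of Teff and Tex together. The 1-TRB and 9-gene alternatives, and 1 cell per clone for expanded clones, were chosen after seeing the data. Of genes past 2-fold in all 4 libraries, a 10 CPM filter gave 192 in place of 115 higher in Teff and Tex, 72 in place of 47 in Tcm and 277 in place of 180 in cycling cells, and adding 1 CPM gave 9 in place of 5 lower in cycling cells. No paired test was made, since the clusters were built on the same expression values. Pooled ratios of clusters and clone classes were taken on UMIs summed over libraries, so libraries with more UMIs weighed more. The ratio in each library, or its range, stands beside most pooled ratios of the main comparisons, but not beside the alternatives. Depth limits Ly6c1, with 96 UMIs, and the TIM-3+ Tex of library 3, with 31 cells.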
